A study of Homo sapiens with 30 samples.

Results

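The genes described here are the 133 ZNF zinc finger genes that hCMEC/D3 cells expressed at 10 CPM or more, CPM being a count scaled to a common library total. They were chosen by their symbol (ZNF followed by a number) and their mean CPM over the 3 Control libraries. The table held 566 such ZNF genes among 63138 genes. Of the other 433 ZNF genes, 73 had no count in any Control library. Because the Control level selected the members, every comparison with Control below is a description of the chosen genes, and the adjusted p-values beside it, from the fit of all genes, mark which genes were called. Comparisons that do not set a group against Control are given as tests.

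hCMEC/D3 cells come from the endothelium of human brain microvessels and were immortalised, so all groups share 1 genetic background and that immortalisation. Each of the 10 groups held 3 libraries. In the direct arm the cells themselves were treated for 12 h: with the cytokine tumour necrosis factor (TNF group, 25 ng/mL), with interleukin 1 beta (IL1b group, 10 ng/mL), with C5a, a fragment of complement (50 ng/mL), with the hormone epinephrine (Epinephrine group, 200 nM), or with nothing added to their serum-free medium (Control). In the vesicle arm, cells were given vesicles that had been enriched from the medium of cells after the same treatments, and each group is named for the treatment of the donor cells, with EV- before it (EV-Control for the untreated donors). The labels do not say whether the 3 libraries of a group were separate cultures, so the p-values measure the spread between these libraries, which may be technical.

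Zinc finger proteins of the C2H2 kind bind DNA through arrays of short folds, each held by a zinc ion between a pair of cysteines and a pair of histidines. The largest branch carries a KRAB box, a domain that recruits the corepressor TRIM28 (also called KAP1) and, through it, the methyltransferase SETDB1 and heterochromatin. KRAB zinc finger proteins are best known for silencing transposable elements and guarding imprinted loci. Other ZNF genes encode promoter activators, subunits of chromatin complexes, RNA-binding proteins or ubiquitin ligases, and a symbol beginning with ZNF says little about the function.

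Library totals ran from 16643961 to 22112326 counts, and the members took 0.363% to 0.474% of the counts. Summed endothelial markers ran from 901 to 1406 CPM over the 30 libraries, summed astrocyte markers from 1.40 to 5.78 CPM with AQP4 at 0, and summed microglia and blood cell markers from 0.837 to 2.83 CPM. Summed neuron markers, led by MAP2, ran from 34.8 to 135 CPM, with 128 CPM in TNF against 49.2 CPM in Control. Summed pericyte markers, led by CSPG4, ran from 320 to 509 CPM, and summed epithelial markers, led by KRT18, from 165 to 366 CPM, with a highest EPCAM value of 0.399 CPM. The part of these markers in the results on the members was not tested. In bulk samples fewer cells of a type and less RNA per cell cannot be told apart. Scaling factors of the TNF libraries were 0.842 to 0.861, against 0.974 to 1.045 in the other groups. Scaling by library total instead moved the median log2 fold change of all genes tested to -0.29 for TNF minus Control and to 0.21 for IL1b minus TNF, so the direction of small TNF differences depends on the scaling. Epinephrine replicate 2 had the lowest summed level of the members, 3951 CPM against 4310 and 4263 CPM in the other 2 Epinephrine libraries.

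Classes come from fixed patterns searched in the translated coding sequences of GENCODE 29, so a box absent here is one without a match. By these, 47 members held a KRAB box and 5 a SCAN domain without a KRAB match. Without a match to either, 53 held 5 or more fingers and 25 held 1 to 4 fingers. No C2H2 finger was found in 3 members, ZNF185, ZNF330 and ZNF703. ZNF185 is an actin-associated LIM protein and ZNF703 is a corepressor of the NET family. KRAB was rarer among the members than among the ZNF genes below 10 CPM, where 278 of 377 genes with a coding sequence held it. The same held for chromosome 19, home of the large KRAB clusters, which carried 29 of 133 members against 235 of 426 placed ZNF genes below 10 CPM. The median member held 8 fingers, against 11 in the ZNF genes below 10 CPM. ZNF142 had the most fingers, 31. For 44 members an exon overlaps that of an antisense gene, and for 23 that of a gene transcribed in the same direction, and related zinc finger genes share sequence. Counting is not stated to use the strand or to treat shared reads in any given way, so values of such members may include reads of another gene.

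The first finger of 6 members that carry the results below is printed here, so that the shared spacing and the different letters can be seen. Each is read from GRCh38 on the coding strand, 5′ to 3′, with the codons of the zinc-binding cysteines and histidines in capitals and 7 further codons after the last histidine. Positions are chr3:44448129-44448212 (minus strand) for ZNF445, chr19:42078658-42078741 (plus) for ZNF574, chr15:34983267-34983350 (minus) for ZNF770, chr1:33281588-33281671 (plus) for ZNF362, chr20:53582542-53582628 (minus) for ZNF217 and chr1:119623689-119623772 (minus) for ZNF697. All lie within a coding exon.
ZNF445: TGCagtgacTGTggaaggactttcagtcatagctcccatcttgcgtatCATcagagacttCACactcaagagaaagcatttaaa
ZNF574: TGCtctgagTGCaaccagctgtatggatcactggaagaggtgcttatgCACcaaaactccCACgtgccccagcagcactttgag
ZNF770: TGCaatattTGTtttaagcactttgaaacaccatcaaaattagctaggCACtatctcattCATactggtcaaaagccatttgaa
ZNF362: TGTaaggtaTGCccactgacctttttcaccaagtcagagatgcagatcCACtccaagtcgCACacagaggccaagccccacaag
ZNF217: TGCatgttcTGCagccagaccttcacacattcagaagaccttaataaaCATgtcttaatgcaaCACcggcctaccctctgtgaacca
ZNF697: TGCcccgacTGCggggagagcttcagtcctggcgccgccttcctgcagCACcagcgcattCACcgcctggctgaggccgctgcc
The capitals fall at the same places in 5 of the 6 sequences. The search pattern itself fixed 12 residues between the cysteine pair and the histidine pair and bounded the other gaps. In ZNF217 the finger has 1 more codon between the histidines, which makes its stretch 87 bases long against 84 in the others.

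The KRAB class is shown by the start of the matched KRAB stretch in 5 members, 24 bases each on the coding strand, with the codons of the phenylalanine and of the following acidic aspartate in capitals. ZNF398 (chr7:149166170-149166193, plus), ZNF436 (chr1:23367133-23367156, minus) and ZNF510 (chr9:96763597-96763620, minus) were among the members highest with C5a. ZNF45 (chr19:43919664-43919687, minus) and ZNF84 (chr12:133047967-133047990, plus) were among those higher in vesicle groups.
ZNF398: TTTgatGATgtctccatctacttt
ZNF436: TTTgaaGATatggccatgtatctc
ZNF510: TTCaagGACgtgactatagaattc
ZNF45: TTCaagGACgtggctgtggtcttc
ZNF84: TTTgacGATttatctgtggacttc
The same pair of residues, which the pattern behind the printed stretches requires, is written with different codons, TTT or TTC and GAT or GAC. The search used a fixed pattern and can miss divergent boxes, so the KRAB class may be undercounted.

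Most members were weakly expressed. The median Control level was 21.9 CPM, 22 members reached 50 CPM and 11 lay between 10 and 11 CPM. Just inside the threshold were ZNF195 at 10.5 CPM, ZNF789 at 10.2 CPM and ZNF75D at 10.2 CPM, and just outside were ZNF133 at 9.88 CPM, ZNF333 at 9.83 CPM and ZNF331 at 9.81 CPM. Per kilobase of exon, the highest Control levels were those of ZNF664 (26.2 CPM per kb), ZNF598 (26.1 CPM per kb), ZNF622 (19.6 CPM per kb), ZNF358 (16.9 CPM per kb) and ZNF106 (16.5 CPM per kb). ZNF598 is the ubiquitin ligase that marks collided ribosomes, ZNF622 acts in ribosome biogenesis and ZNF106 binds RNA.

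Members varied modestly over the 10 groups. The ratio of the highest to the lowest group mean had a median of 1.41, against 1.37 for all genes at 10 CPM or more, and 83 members stayed under 1.5. Only 8 members (6.01%) reached a ratio of 2, against 12.5% of genes at 10 CPM or more. They were ZNF362 (3.03), ZNF697 (2.55), ZNF395 (2.35), ZNF608 (2.33), ZNF714 (2.17), ZNF277 (2.13), ZNF623 (2.05) and ZNF710 (2.03). The smallest ratios were those of ZNF512 (1.08), ZNF664 (1.11), ZNF451 (1.14), ZNF384 (1.16) and ZNF592 (1.16). The group with the highest mean was IL1b for 37 members and C5a for 25, and the group with the lowest mean was TNF for 37 members and Control for 33. The same counts were not made over other genes, so nothing particular to the members is read from them. The place of TNF in them depends on the scaling.

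**Figure D1:**
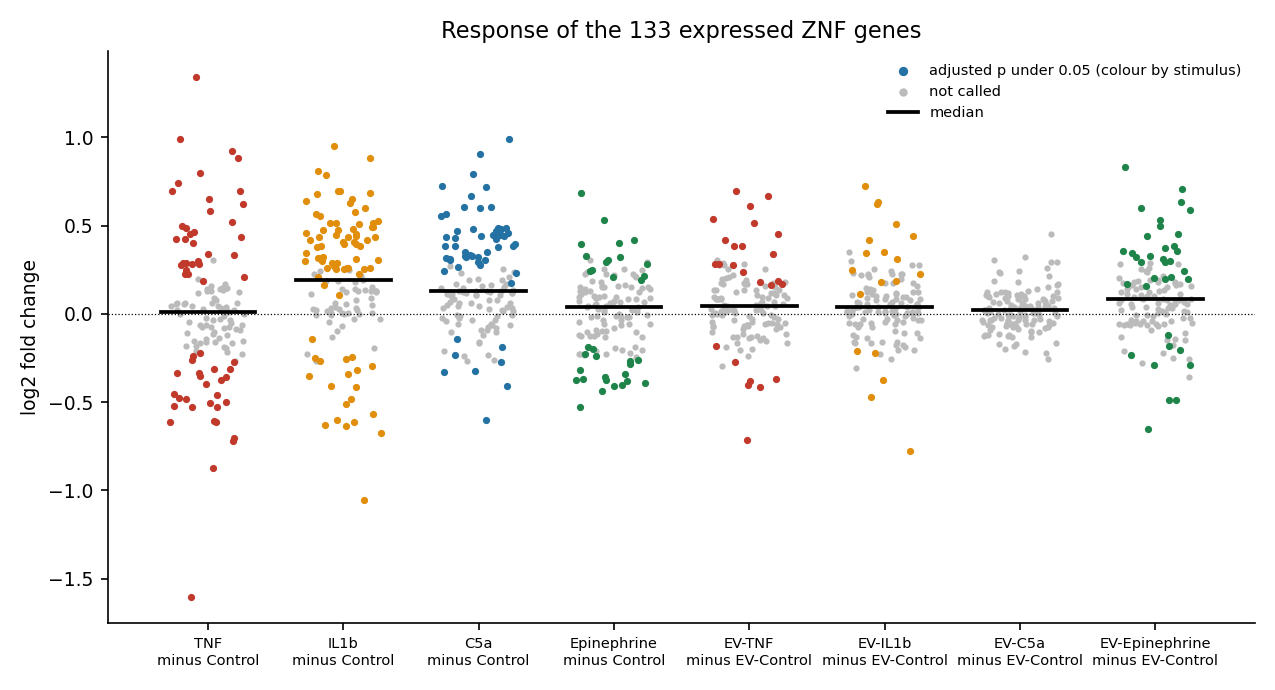
Log2 fold change (vertical axis) of each of the 133 members in the 8 comparisons of a stimulus or vesicle group with its own control (horizontal axis), with coloured points for calls at an adjusted p under 0.05, grey points for the others and a black line for the median. The points spread widest for TNF and IL1b, the medians lie above 0 for IL1b (0.19) and C5a (0.13), and no point is coloured for EV-C5a. Scaling by library total would lower the TNF column.

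After direct stimulation, the 4 stimuli were first compared with each other, so that no Control level entered the comparison. The Control libraries still took part in the filter, scaling and spread of the shared fit. In edgeR's test over TNF, IL1b, C5a and Epinephrine, 102 of 133 members (76.7%) differed among the stimuli. The share was 62.3% over all genes tested and 77.1% over genes at 10 CPM or more, so the members differed about as often as other genes of their level. The largest F values were those of ZNF608 (71.4), ZNF362 (63.0), ZNF185 (61.3), ZNF697 (56.1), ZNF281 (52.2), ZNF445 (46.3), ZNF710 (42.7), ZNF277 (39.8), ZNF48 (39.6) and ZNF623 (39.6).

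With C5a, an anaphylatoxin released when complement is activated, more members were higher than lower relative to Control. There were 49 members called higher and 8 called lower, with a median log2 fold change of 0.13. Over all genes tested the calls were 11.8% higher and 10.8% lower, and over genes at 10 CPM or more 16.2% higher and 14.7% lower. The KRAB class had 22 of 47 members called higher and 0 lower, with a median of 0.24. Of the members with 5 or more fingers, 20 of 53 were called higher and 4 lower. The 25 members with 1 to 4 fingers had 4 called in each direction. Under scaling by library total the split of all members stayed at 49 higher and 8 lower, and that of the KRAB class at 22 and 0.

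ZNF445, a KRAB protein that guards imprinted loci (chr3:44431720-44477670, minus strand, with exons shared with C3orf86), had the lowest adjusted p of the members named for C5a. Its CPM was 29.4, 30.4 and 27.6 in Control, 32.4, 27.9 and 31.1 in TNF, 44.0, 43.7 and 43.9 in IL1b, 49.4, 52.5 and 48.5 in C5a, and 35.1, 34.0 and 31.7 in Epinephrine. The C5a libraries lay above all other direct libraries, and the IL1b libraries came next without overlap. The log2 fold change against Control was 0.79 with C5a (SE 0.07, edgeR adjusted p = 9.42e-11) and 0.60 with IL1b.

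ZNF574, with 18 fingers and no KRAB box (chr19:42068477-42081549, plus strand), separated the same pair of stimuli from the rest. Its CPM was 10.4, 9.76 and 11.2 in Control, 11.1, 9.83 and 13.6 in TNF, 19.3, 19.4 and 18.8 in IL1b, 21.0, 18.7 and 18.8 in C5a, and 9.22, 9.21 and 13.7 in Epinephrine. The IL1b and C5a libraries overlapped each other and lay above all libraries of the other 3 direct groups. Against Control the log2 fold change with C5a was 0.91 (SE 0.13, edgeR adjusted p = 1.04e-06).

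ZNF623, with 13 fingers, had the largest C5a difference. Its CPM was 13.2, 13.3 and 12.9 in Control and 24.2, 25.4 and 28.4 in C5a, with a log2 fold change of 0.99 (SE 0.10, edgeR adjusted p = 1.33e-09). The IL1b libraries stood between them at 19.4, 21.5 and 20.9 CPM. The other members with the largest C5a differences were ZNF714 (0.73), ZNF398 (0.72), ZNF770 (0.67), ZNF436 (0.61), ZNF510 (0.61), ZNF107 (0.60) and ZNF12 (0.57). Of these, ZNF398, ZNF436, ZNF510, ZNF107 and ZNF12 had a KRAB match by the fixed patterns. Exons of ZNF436 overlap the antisense gene ZNF436-AS1, and counting is not stated to use the strand, so reads of the pair may be mixed.

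The members lower with C5a changed less. ZNF628, with 16 fingers, had the largest difference, from 19.7, 19 and 17.7 CPM in Control to 14.5, 10.8 and 11.8 CPM in C5a, a log2 fold change of -0.60 (SE 0.11, edgeR adjusted p = 0.000103). ZNF358 (-0.41) and ZNF598 (-0.19) were also called lower, no overlap with Control being a condition for naming them. In fits without 1 library the adjusted p of ZNF598 in edgeR's test reached 0.0495, just under the threshold. Calls of ZNF277 (-0.33), ZNF362 (-0.32), ZNF706 (-0.27), ZNF687 (-0.23) and ZNF207 (-0.14, a spindle and kinetochore protein) were each lost in at least 1 fit without a library. For ZNF207 these were Control replicates 1 and 3 and C5a replicates 1 and 3, for ZNF277 Control replicate 2 and C5a replicates 1 and 3, for ZNF362 Control replicate 2 and C5a replicate 3, for ZNF706 Control replicate 1 and C5a replicate 3, and for ZNF687 Control replicate 1 and C5a replicate 2.

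**Figure D2:**
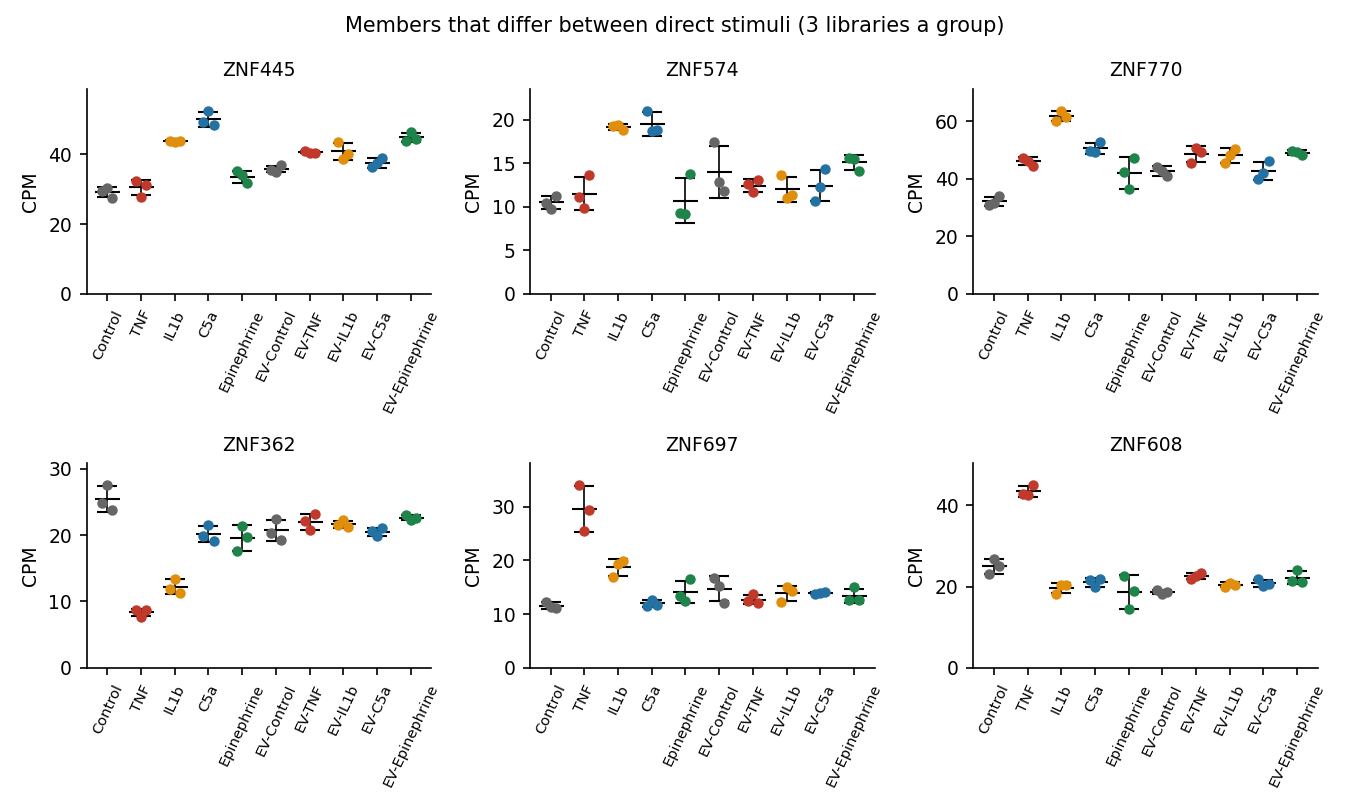
CPM (vertical axis, from 0) of ZNF445, ZNF574, ZNF770, ZNF362, ZNF697 and ZNF608 in the 3 libraries of each of the 10 groups (horizontal axis), with the mean and SD as bars. ZNF445 and ZNF574 stand highest in IL1b and C5a among direct groups, ZNF362 is lowest in TNF (7.73 to 8.71 CPM), and ZNF697 and ZNF608 are highest in TNF.

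An ETS core was found in a larger share of members than of other expressed genes. To show it, the promoters of 3 KRAB members named among the C5a rises are printed. Promoters of members with larger C5a rises, such as ZNF574 and ZNF445, are not shown. The printed promoters were chosen for holding a match, so its presence in each is not a result. They are the 250 bases before the RefSeq start (GRCh38.p14), 5′ to 3′ on the gene's strand, with the match in capitals; it reads CTTCCGG, the reverse complement of the searched CCGGAAG.
ZNF436 (chr1:23369837-23370086, minus strand): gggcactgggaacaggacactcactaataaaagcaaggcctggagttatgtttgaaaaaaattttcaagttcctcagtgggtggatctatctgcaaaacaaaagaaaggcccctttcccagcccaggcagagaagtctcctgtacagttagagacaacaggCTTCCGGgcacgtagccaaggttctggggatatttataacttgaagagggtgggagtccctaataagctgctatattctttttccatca
ZNF107 (chr7:64665883-64666132, plus strand): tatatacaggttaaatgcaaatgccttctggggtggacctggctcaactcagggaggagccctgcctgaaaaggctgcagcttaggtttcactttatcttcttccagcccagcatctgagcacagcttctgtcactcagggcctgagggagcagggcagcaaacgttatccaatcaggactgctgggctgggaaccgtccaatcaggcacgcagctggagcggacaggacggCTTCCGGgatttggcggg
ZNF12 (chr7:6706948-6707197, minus strand): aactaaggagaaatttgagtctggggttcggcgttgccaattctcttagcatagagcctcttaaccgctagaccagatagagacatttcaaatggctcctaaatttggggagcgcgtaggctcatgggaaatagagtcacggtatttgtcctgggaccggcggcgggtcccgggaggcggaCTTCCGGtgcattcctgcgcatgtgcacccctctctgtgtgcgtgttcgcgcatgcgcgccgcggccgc
In windows of 250 bases before to 50 after the start, read on both strands, CCGGAAG was found in 43 of the 116 members with a RefSeq window (37.1%). It was found in 20.8% of the windows of genes at 10 CPM or more and in 10.7% of all 27305 windows. Among members called higher with C5a the share was 17 of 44 (38.6%), close to that of all members. Among members called lower with C5a it was 4 of 7 (57.1%). The GC box GGGCGG was found in 62.1% of members and 73% of genes at 10 CPM or more, and the NF-kappaB string, GGGA and TTCC with 2 free bases between, in 2 members (1.72%) against 1.64%. The cAMP response element TGACGTCA was found in 6.03% of members against 3.53%, the AP-1 string TGANTCA in 5.17% against 3.99%, the E-box CACGTG in 5.17% against 10.6%, CCAAT in 33.6% against 36.9% and the NRF1 string, GCGCA followed by TGCGC, in 3.45% against 2.57%. Strings can overlap one another, and a match describes letters only.

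C5a and Epinephrine share no libraries and were compared directly, as a test that sets neither against Control. The Control libraries took part only in the filter, scaling and spread of the shared fit. There were 35 members higher in C5a and 3 lower, with a median log2 difference of 0.15. Over all genes tested 8.08% were higher and 8.98% lower, and over genes at 10 CPM or more 11.2% and 11.8%. The members were thus called higher at more than the background share and lower at less than it. The KRAB class had 17 of 47 members higher and 0 lower. The called share of members, 28.6%, was 18.1% without C5a replicate 3 and also without Epinephrine replicate 3. Without Epinephrine replicate 3 the KRAB class had 9 members higher, and without C5a replicate 2 or 3 it had 11, with 0 lower in each of these fits. In a fit of only these groups the called share was 15.8%. Without Epinephrine replicate 2, the library with the lowest summed member level, 28 members were higher and 5 lower.

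The largest of these differences were those of ZNF574 (0.85), ZNF510 (0.80), ZNF623 (0.77), ZNF436 (0.73), ZNF48 (0.70) and ZNF445 (0.58). ZNF510 had 16.6, 15.6 and 16.2 CPM in C5a and 10.5, 8.65 and 8.63 CPM in Epinephrine, with an edgeR adjusted p of 4.01e-06. ZNF48, with 12 fingers and exons that overlap SEPT1 on the other strand, had 17.2, 17.4 and 16.4 CPM in C5a and 10.2, 10.5 and 10.6 CPM in Epinephrine (edgeR adjusted p = 5.53e-06). In both genes the groups were well apart. The 3 members lower in C5a were ZNF281 (-0.25), ZNF217 (-0.25) and ZNF207 (-0.16), and each call was lost in some fits without a library. For ZNF217 these were the fits without C5a replicate 1 or 3 or Epinephrine replicate 3, for ZNF281 those without C5a replicate 2 or Epinephrine replicate 3, and for ZNF207 that without C5a replicate 3.

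With IL1b 63 members were higher than in Control and 20 lower, with a median log2 fold change of 0.19. The calls over all genes tested were 24% higher and 22.6% lower, and over genes at 10 CPM or more 32.5% and 27%. The KRAB class had 26 of 47 members higher and 1 lower (median 0.27), and the members with 1 to 4 fingers had 6 higher and 10 lower. Scaling by library total gave 50 members higher and 23 lower, and 20 higher and 3 lower in the KRAB class.

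ZNF770, with 10 fingers (chr15:34978341-34988287, minus strand), had the largest rise with IL1b. Its CPM was 30.7, 31.7 and 33.9 in Control and 60.2, 63.6 and 61.5 in IL1b, a log2 fold change of 0.95 (SE 0.07, edgeR adjusted p = 2.99e-13). The TNF libraries held 47.2, 46.3 and 44.5 CPM and the C5a libraries 49.8, 49.3 and 52.7 CPM, so every library of these 3 stimuli was above Control. ZNF574 (0.88), ZNF692 (0.81), ZNF398 (0.79), ZNF697 (0.70), ZNF22 (0.69), ZNF146 (0.69), ZNF107 (0.68), ZNF623 (0.65) and ZNF292 (0.64) followed. ZNF692 had 25.4, 26.0 and 26.9 CPM in IL1b against 16.7, 13.9 and 14.3 CPM in Control.

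Lower with IL1b were ZNF362 (-1.05), ZNF219 (-0.68), ZNF580 (-0.64), ZNF358 (-0.63), ZNF628 (-0.61), ZNF185 (-0.60), ZNF414 (-0.57), ZNF76 (-0.51), ZNF789 (-0.48) and ZNF318 (-0.41). ZNF580 is a small factor studied in endothelial cells, and ZNF76 is the close paralog of the promoter activator ZNF143. ZNF580 had 23.7, 20.4 and 18.1 CPM in Control and 13.1, 12.9 and 13.8 CPM in IL1b. Its exons overlap CCDC106 and ZNF581, so its reads may be mixed with theirs.

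With TNF the members moved in both directions, 33 higher and 28 lower, with a median of 0.01. The calls over all genes tested were 27.5% higher and 25.3% lower, and over genes at 10 CPM or more 36.2% and 28.8%. This split depends on the scaling, since scaling by library total gave 14 higher and 82 lower. The KRAB class had 8 called in each direction, and 2 higher and 32 lower under that scaling. The largest differences below, ZNF697 and ZNF362, exceed the shift that this scaling makes in all genes.

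ZNF697, with 11 fingers (chr1:119619422-119647773, minus strand), had 12.3, 11.4 and 11.1 CPM in Control, 34.0, 25.5 and 29.3 CPM in TNF and 17.0, 19.3 and 19.8 CPM in IL1b. The C5a libraries, at 11.5 to 12.7 CPM, overlapped Control. The TNF log2 fold change was 1.34 (SE 0.11, edgeR adjusted p = 8.20e-13). ZNF710 (0.99), ZNF107 (0.92), ZNF217 (0.88), ZNF608 (0.80), ZNF827 (0.74), ZNF407 (0.70), ZNF644 (0.70), ZNF281 (0.65) and ZNF277 (0.62) came next. ZNF217 is an oncogenic factor of CoREST-type complexes, ZNF644 partners the methyltransferases G9a and GLP, and ZNF281 associates with the NuRD complex. Exons of ZNF710 overlap ZNF710-AS1.

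ZNF362, with 6 fingers (chr1:33256545-33300719, plus strand), fell furthest. Its CPM was 24.8, 27.5 and 23.8 in Control, 8.68, 7.73 and 8.71 in TNF and 11.9, 13.4 and 11.2 in IL1b. The C5a libraries held 19.8, 21.5 and 19.1 CPM and the Epinephrine libraries 17.6, 21.4 and 19.7 CPM, all below Control. The TNF log2 fold change was -1.60 (SE 0.11, edgeR adjusted p = 2.44e-15). ZNF395, a factor bound to hypoxia and interferon genes, went from 27.0, 23.8 and 25.1 CPM to 12.5, 14.2 and 14.8 CPM with TNF (-0.87), and its exons overlap FBXO16. ZNF358 (-0.72), ZNF414 (-0.70), ZNF185 (-0.61), ZNF580 (-0.61), ZNF76 (-0.61), ZNF789 (-0.53), ZNF213 (-0.53) and ZNF791 (-0.52) were also lower.

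The 2 cytokines differed from each other in 65 members. IL1b was higher than TNF in 50 members and lower in 15, with a median of 0.15. Of all genes tested 19.9% were higher and 21.4% lower. Shares of genes at 10 CPM or more are not given for this comparison, so the members are not set apart from genes of their level. Under scaling by library total the split of the members was 95 higher and 7 lower. The KRAB class had 21 of 47 members higher in IL1b and 1 lower, and 39 higher and 0 lower under that scaling. ZNF692 (1.00), ZNF48 (0.96), ZNF398 (0.90), ZNF510 (0.79), ZNF714 (0.79) and ZNF574 (0.75) were the furthest above TNF.

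ZNF608, with 1 finger in 1512 residues (chr5:124636913-124748807, minus strand), differed most in the other direction. Its CPM was 42.9, 42.5 and 45 in TNF and 18.2, 20.3 and 20.4 in IL1b, while Control held 23.2, 26.7 and 25.2 CPM. TNF was above Control and IL1b below it, with no overlap. IL1b minus TNF was -1.14 (SE 0.10, edgeR adjusted p = 1.26e-11). ZNF277 (-0.69), ZNF697 (-0.65), ZNF219 (-0.52), ZNF281 (-0.52) and ZNF827 (-0.49) followed. ZNF281 had 92.4, 101 and 104 CPM in TNF and 72.1, 69.6 and 65.1 CPM in IL1b.

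**Figure D3:**
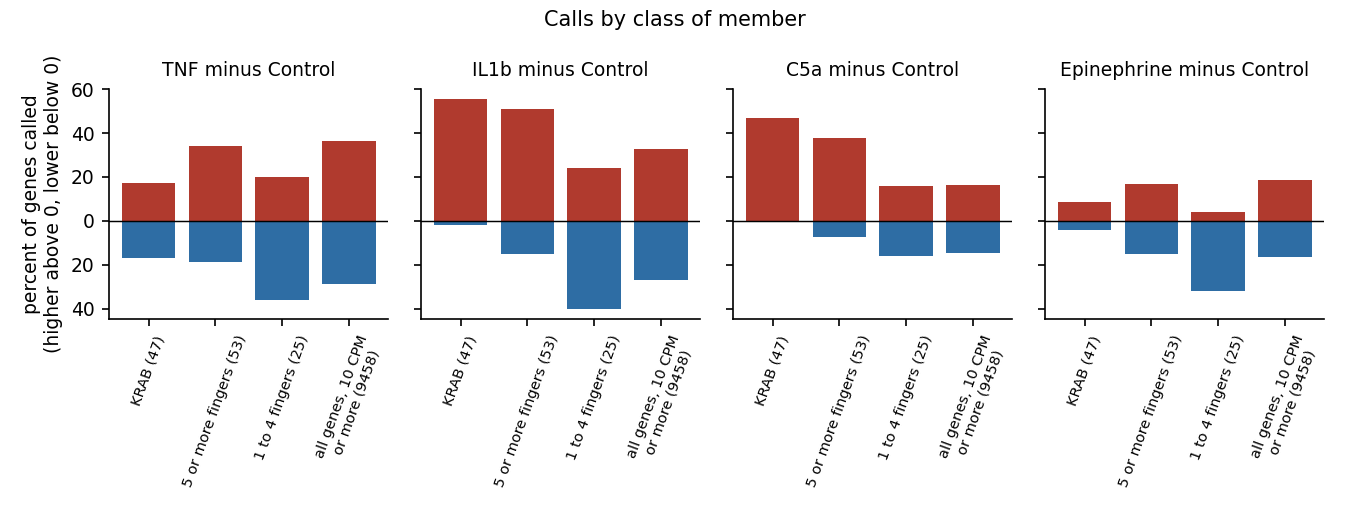
Percent of genes called higher (above 0) and lower (below 0) at an adjusted p under 0.05 in the 4 direct comparisons, for members with KRAB (47), with 5 or more fingers (53), with 1 to 4 fingers (25) and for all genes at 10 CPM or more (9458). The KRAB bars point up with IL1b and C5a, and the bars for 1 to 4 fingers point mostly down with TNF, IL1b and Epinephrine. Under scaling by library total the TNF bars of KRAB would hold 2 higher and 32 lower.

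With Epinephrine, the catecholamine that acts through adrenergic receptors, 15 members were higher and 19 lower than in Control. The calls over all genes tested were 13.5% higher and 11.8% lower, and over genes at 10 CPM or more 18.7% and 16.7%. Without Control replicate 1 the called share of members fell from 25.6% to 15%, and without Epinephrine replicate 2 it was 38.4%, with 31 higher and 20 lower. Of the members with 1 to 4 fingers, 1 was higher and 8 lower. ZNF217 (0.69), ZNF644 (0.53), ZNF770 (0.40), ZNF148 (0.32), ZNF146 (0.31) and ZNF24 (0.25) were higher. ZNF148 binds GC boxes and ZNF24 is a SCAN factor. ZNF219 (-0.53), ZNF687 (-0.44), ZNF608 (-0.40), ZNF706 (-0.38), ZNF512B (-0.38) and ZNF362 (-0.37) were lower. ZNF687, a partner of the chromatin reader ZMYND8, had 68.6, 65.6 and 63.2 CPM in Control and 50.5, 47.5 and 46.8 CPM in Epinephrine (edgeR adjusted p = 1.94e-06). Calls of ZNF12 (0.42, without Epinephrine replicate 3), ZNF414 (-0.41), ZNF319 (-0.39) and ZNF628 (-0.38, all without Control replicate 1) and ZNF358 (-0.36, without Control replicate 2) were lost in the fits named.

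By role, the calls among the 7 ribosome and RNA members were 0 higher and 1 lower with TNF, 1 and 2 with IL1b, 1 and 1 with C5a, and 0 and 1 with Epinephrine. Among genes at 10 CPM or more, the shares called higher and lower were 36.2% and 28.8% with TNF, 32.5% and 27% with IL1b, 16.2% and 14.7% with C5a, and 18.7% and 16.7% with Epinephrine. In the test among the 4 direct stimuli, 5 of the 7 were called, against 62.3% of all genes tested. Over genes at 10 CPM or more that share was 77.1%. ZNF106 had 187, 199 and 200 CPM in Control and log2 fold changes between 0.02 and 0.06 over the 4 stimuli, none called. ZNF598 had 123, 122 and 113 CPM in Control and log2 fold changes of -0.34 with TNF, -0.14 with IL1b, -0.19 with C5a and -0.24 with Epinephrine, each called; these 4 comparisons share the Control libraries. ZNF622 was called in none of them. ZNF638, a nuclear matrix RNA-binding protein, was called only with IL1b (0.21).

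Of the 10 members of chromatin complexes, the calls were 4 higher and 1 lower with TNF, 4 and 1 with IL1b, 3 and 1 with C5a, and 2 and 1 with Epinephrine, beside the shares just given for genes at 10 CPM or more. The test among the 4 direct stimuli called 5 of the 10. That test called 62.3% of all genes tested and 77.1% of genes at 10 CPM or more. Groups of this size are described only and not set apart from other genes. ZNF644 had log2 fold changes of 0.70, 0.63, 0.49 and 0.53 in that order and ZNF687 of -0.22, -0.27, -0.23 and -0.44. ZNF532, which shares the ZMYND8 partnership with ZNF687, was not called with any stimulus. ZNF281 was called only with TNF.

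Among the activators and architectural factors, 4 of 6 were called higher and 1 lower with TNF, 5 and 1 with IL1b, 4 and 0 with C5a, and 3 and 1 with Epinephrine, beside the same shares of genes at 10 CPM or more (36.2% and 28.8%, 32.5% and 27%, 16.2% and 14.7%, 18.7% and 16.7%). The test among the 4 direct stimuli called 4 of the 6, beside 62.3% of all genes and 77.1% of genes at 10 CPM or more. ZNF143 had log2 fold changes of 0.34 with TNF and 0.49 with IL1b, while its paralog ZNF76 had -0.61 and -0.51. The paralogs thus moved in opposite directions with both cytokines, although the TNF value of ZNF143 is close to the shift that scaling by library total makes. ZNF76 had 39.3, 43.1 and 45.1 CPM in Control and 27.6, 26.6 and 29.6 CPM in TNF. Of the KRAB repressors with a studied target, ZNF445 and ZNF268 were higher with IL1b and C5a, and ZNF274, which brings SETDB1 to ZNF gene bodies, was higher with TNF (0.25) and IL1b (0.27).

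The genes of the KRAB silencing machinery were listed with earlier results of these data known. Of 30 such genes, 6 were called higher and 1 lower with C5a, 11 higher and 2 lower with IL1b, and 5 higher and 9 lower with TNF. The shares of genes at 10 CPM or more called higher and lower were 16.2% and 14.7% with C5a, 32.5% and 27% with IL1b, and 36.2% and 28.8% with TNF, and nothing particular to the list is read from its counts. With C5a the called genes were UHRF1 (0.50), RIF1 (0.42), SUV39H2 (0.33), SMARCAD1 (0.23), CBX1 (0.19) and MORC2 (0.19), and CHD4 (-0.26). TRIM28 was not among them.

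Summed over the 47 KRAB members, the level was 790 CPM in Control, 804 ± 16.3 in TNF, 936 ± 8.56 in IL1b, 936 ± 12.6 in C5a and 802 ± 36.7 in Epinephrine (mean ± SD, n = 3). The IL1b and C5a sums lay above every other direct library and did not differ from each other beyond their SDs. The vesicle groups ran from 800 CPM in EV-Control to 852 ± 4.75 CPM in EV-Epinephrine. For all 133 members the sum was 4181 ± 51.6 CPM in Control, 4589 ± 21.0 in IL1b and 4523 ± 15.9 in C5a. Summed endothelial markers were 1377 CPM in Control, 1027 CPM in IL1b and 1053 CPM in C5a, and summed epithelial markers 280 CPM in Control, 278 CPM in IL1b and 359 CPM in C5a; their part in the sums of the members was not tested.

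**Figure D4:**
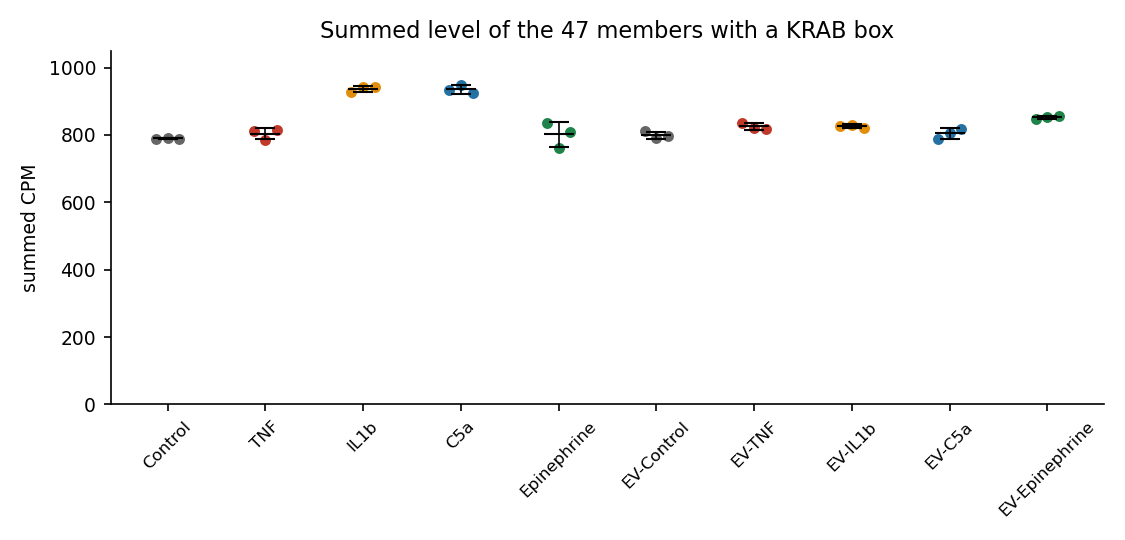
Summed CPM of the 47 KRAB members (vertical axis, from 0) in the 3 libraries of each of the 10 groups (horizontal axis), with bars for mean and SD. IL1b and C5a stand above the other direct groups, at 936 CPM each against 790 CPM in Control, and the vesicle groups lie between 800 and 852 CPM.

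Other zinc finger families were read beside the members. Of 39 expressed genes of the ZSCAN, ZKSCAN, ZBTB and ZFP families, 20 were called higher and 2 lower with C5a, against 16.2% and 14.7% of genes at 10 CPM or more. Of the 433 ZNF genes below 10 CPM in Control, 315 passed the low-count filter, and no count is given for them because the filter favours genes that are high in some group. Members chosen on EV-Control instead, 135 genes, gave 51 higher and 8 lower with C5a.

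Neighbouring members could have different C5a values. Within 100000 bases of each other lay 23 pairs of members, formed by 40 genes. In 2 pairs the exons overlap, ZNF468 with ZNF320 and ZNF789 with ZNF394. ZNF84 had a C5a log2 fold change of 0.38 and its neighbour ZNF26, 4340 bases away on the same strand, -0.09. For ZNF33A and ZNF37A the values were 0.46 and 0.12.

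Among cells given vesicles, 40 members (30.1%) differed over the 5 vesicle groups in edgeR's test, against 24.2% of all genes tested and 32.6% of genes at 10 CPM or more. These comparisons use no Control library. The largest F values were those of ZNF623 (24.6), ZNF367 (23.5), ZNF217 (14.1), ZNF45 (11.8), ZNF146 (11.2), ZNF561 (11), ZNF84 (10.1), ZNF778 (9.91), ZNF48 (9.57) and ZNF518B (9.22).

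Each vesicle group was set against EV-Control, which all of these comparisons share. In EV-TNF 18 members were higher and 7 lower, against 5.9% and 7.42% of all genes tested. In EV-IL1b 14 were higher and 5 lower, against 6.49% and 8.14%. In EV-Epinephrine 27 were higher and 9 lower, against 9.12% and 10.5%. In each of these groups members were called higher at above the share of all genes tested and lower at below it. Shares of genes at 10 CPM or more are not given here by direction. In the test over the vesicle groups such genes were called more often than all genes, and more often than the members. An excess of higher calls over genes of their level is therefore not read from these counts. Scaling by library total gave 20 higher and 3 lower in EV-IL1b and 35 and 5 in EV-Epinephrine. The called share in EV-IL1b, 14.3%, was 21.8% without EV-Control replicate 3, 9.02% without EV-IL1b replicate 2 or 3, and 6.02% in a fit of only its groups. In EV-TNF the share was 18.8% and 12.0% in the fit of only its groups.

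No member was called in EV-C5a by edgeR, against 0.0126% of all genes tested called higher and 0.0377% lower, which is 8 genes. At an unadjusted p under 0.05 there were 15 members and 1202 genes, and DESeq2 called 0 members. Without EV-Control replicate 3, 4 members (3.01%) were called. ZNF445 had 35.6, 35 and 36.9 CPM in EV-Control and 36.3, 37.5 and 39.1 CPM in EV-C5a, and ZNF574 had 17.4, 12.8 and 11.8 CPM and 10.7, 12.2 and 14.3 CPM, so the groups overlapped for both. ZNF623 had 14.5, 15 and 17.3 CPM in EV-C5a against 12.4, 12.2 and 13.5 CPM in EV-Control, without overlap, and was not called.

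ZNF623 had the largest rise in EV-IL1b and in EV-Epinephrine. Its CPM was 12.4, 12.2 and 13.5 in EV-Control, 18.4, 17.5 and 18.7 in EV-TNF, 22.9, 20.6 and 19.7 in EV-IL1b, 14.5, 15 and 17.3 in EV-C5a and 22.5, 23.9 and 21.4 in EV-Epinephrine. Every library of the other 4 vesicle groups lay above EV-Control. The log2 fold changes were 0.51 in EV-TNF, 0.72 in EV-IL1b and 0.83 in EV-Epinephrine (SE 0.10, edgeR adjusted p = 9.92e-10 for the last).

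The KRAB genes ZNF45 and ZNF84 were called higher in EV-TNF, EV-IL1b and EV-Epinephrine. ZNF45 had 6.53, 7.93 and 8.70 CPM in EV-Control, 13.5, 12.6 and 11.5 CPM in EV-TNF and 13.1, 11.3 and 13.6 CPM in EV-Epinephrine. Its EV-TNF log2 fold change was 0.69 (SE 0.13, edgeR adjusted p = 7.75e-05). EV-Control lay below Control for this gene, at 10.6, 11.4 and 10.4 CPM in Control, so the vesicle groups stand apart from EV-Control more than from Control. ZNF84 had 9.35, 8.32 and 9.30 CPM in EV-Control and 14.2, 14.2 and 12.8 CPM in EV-TNF (0.61, SE 0.11, edgeR adjusted p = 5.70e-05). ZNF48 (0.67, 0.64 and 0.59) and ZNF518B (0.54, 0.44 and 0.53), a partner of G9a, were higher in EV-TNF, EV-IL1b and EV-Epinephrine in that order, the ZNF518B call in EV-IL1b being lost in a fit of only its groups.

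**Figure D5:**
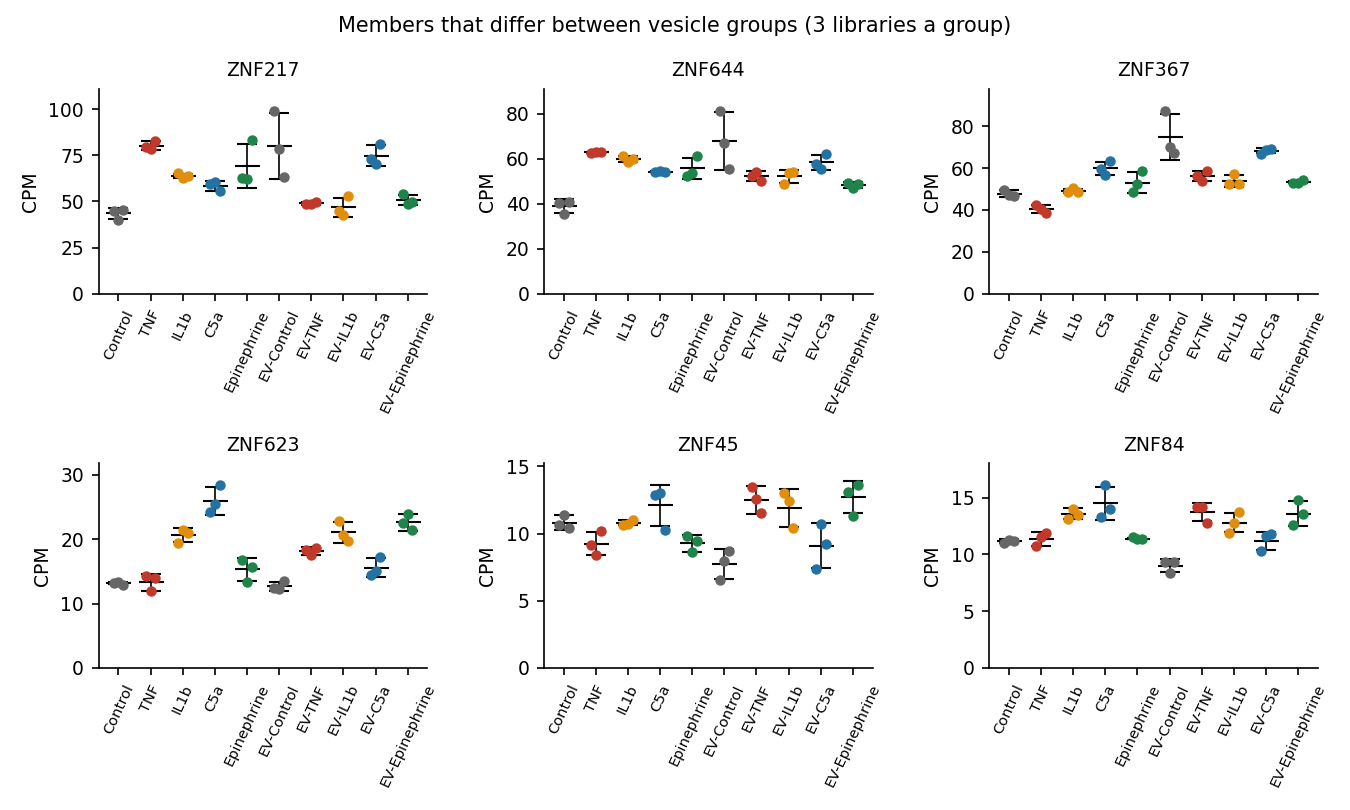
CPM (vertical axis, from 0) of ZNF217, ZNF644, ZNF367, ZNF623, ZNF45 and ZNF84 in the 3 libraries of each of the 10 groups (horizontal axis), with the mean and SD as bars. The EV-Control libraries of ZNF217, ZNF644 and ZNF367 are spread widely with replicate 1 highest, and ZNF623, ZNF45 and ZNF84 stand above EV-Control in EV-TNF, EV-IL1b and EV-Epinephrine.

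The members lower in vesicle groups were led by 3 genes that were high and variable in EV-Control. ZNF217 (chr20:53567065-53609907, minus strand) had 99.1, 78.4 and 63.5 CPM in EV-Control, 48.4, 48.6 and 49.7 CPM in EV-TNF, 45, 42.9 and 52.8 CPM in EV-IL1b, 73.1, 70.5 and 81.2 CPM in EV-C5a and 54.0, 48.6 and 49.9 CPM in EV-Epinephrine. EV-C5a overlapped EV-Control and the other 3 vesicle groups lay below both. The log2 fold changes were -0.72 in EV-TNF, -0.78 in EV-IL1b and -0.65 in EV-Epinephrine, called in the fit of 15 vesicle libraries (edgeR adjusted p = 0.00391 for EV-IL1b) and in none of the fits of only the groups compared. ZNF217 was also above Control (44.8, 40.2 and 45.5 CPM) in EV-Control, by 0.88.

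ZNF367, a short-array factor (chr9:96385941-96418329, minus strand), had 87.3, 70.2 and 67.1 CPM in EV-Control, 56.3, 53.8 and 58.4 CPM in EV-TNF, 52.3, 57.3 and 52.5 CPM in EV-IL1b and 53.1, 52.9 and 54.1 CPM in EV-Epinephrine. That these groups did not overlap EV-Control was a condition for naming the gene. Its EV-Epinephrine log2 fold change was -0.49 (SE 0.07, edgeR adjusted p = 3.46e-07). ZNF644 (chr1:90915298-91022272, minus strand) had 81.2, 66.8 and 55.5 CPM in EV-Control and 49.3, 46.8 and 48.7 CPM in EV-Epinephrine, a log2 fold change of -0.49. Its EV-TNF (-0.38) and EV-IL1b (-0.38) calls were lost without EV-Control replicate 2, without EV-TNF replicate 1 or 3, and without any single EV-IL1b replicate.

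EV-Control itself differed from Control in 40 members, 19 higher and 21 lower, against 12.1% of all genes tested higher and 9.8% lower. Shares of genes at 10 CPM or more are not given for this comparison, so the members are not set apart from genes of their level. The split of the members was 13 higher and 26 lower under scaling by library total. It was 28 and 16 for the 135 members chosen on EV-Control. The called share, 30.1%, was 19.6% without Control replicate 1 and 16.5% without EV-Control replicate 1. Besides ZNF217, the members ZNF644 (0.80), ZNF367 (0.65), ZNF703 (0.57), ZNF292 (0.50) and ZNF407 (0.42) were higher in EV-Control, and ZNF518B (-0.55), ZNF641 (-0.52), ZNF319 (-0.44) and ZNF608 (-0.42) were lower. Summed endothelial markers were 925 CPM in EV-Control and 1377 ± 28.6 CPM in Control, and their part in these differences was not tested.

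Whether the vesicle response differed from the direct response was read from interactions, in which the direct response is subtracted from the vesicle response. The shares beside the counts are those of all genes tested. Shares of genes at 10 CPM or more are not given here, so the members are not set apart from genes of their level. For C5a 5 members were higher and 30 lower in this difference, against 5.87% and 6.05% of all genes tested. The KRAB class had 1 member higher and 12 lower. ZNF574 (-1.07, edgeR adjusted p = 3.87e-05), ZNF445 (-0.71, edgeR adjusted p = 5.77e-08), ZNF644 (-0.70) and ZNF398 (-0.69) led. For IL1b 22 members were higher and 34 lower, against 16.9% and 18.3%, for TNF 36 and 25, against 21.3% and 23.4%, and for Epinephrine 31 and 10, against 11.7% and 12.5%. Under scaling by library total the TNF split was 71 higher and 9 lower and the IL1b split 25 and 26. ZNF362 had an interaction of 1.69 for TNF (SE 0.13, edgeR adjusted p = 4.64e-17), its vesicle libraries lying at 20.7 to 23.1 CPM in EV-TNF, near the 19.3 to 22.4 CPM of EV-Control. ZNF697 had -1.54 for TNF, with 12.1 to 13.7 CPM in EV-TNF against 25.5 to 34.0 CPM in TNF.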

How the data were processed

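RNA was measured by sequencing in 30 hCMEC/D3 libraries, each prepared from an input of 1 ng of RNA with a NEBNext Ultra kit, per the labels' protocols. The table the authors deposited holds, per the file headers and values, the raw count of reads for each Ensembl gene ID in each library, without normalization. The submitters' processing notes name FastQC, STAR, DESeq2, R 4.4.1 and hg38 without their roles. The annotation release, the counting program and strand use are not given in the sources used here. All libraries carry batch 1 in the labels.

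Of 63147 lines, 4 without a gene ID (0.00079% to 0.0016% of a library's counts), 2 gene IDs without counts and repeats of 3 gene IDs were left out, leaving 63138 genes. Counts were tested with edgeR 4.0.16 in R 4.3.3 (filterByExpr defaults, TMM scaling, robust quasi-likelihood test, two-sided, Benjamini-Hochberg adjustment over all genes tested, threshold 0.05). The direct comparisons used the 15 direct libraries (15908 genes), the vesicle comparisons the 15 vesicle libraries (15918 genes), and EV-Control against Control and the interactions all 30 libraries (16691 genes). The biological coefficient of variation was 0.0553, 0.05 and 0.0528. CPM printed for a library are counts over its total and TMM factor; the member rule used the library total alone. All 133 members passed the filter. Counting error alone allows up to 3 counts where a count is 0, and duplicates cannot be told from molecules. On simulated data for C5a minus Control, over 15347 genes, the test found 192 of 200 genes changed by a factor of 2 and made 17 false calls. The simulation gave every gene the same spread, changed only genes above a low mean count and held no shift of scaling like that of TNF. Recovery in the real data may therefore differ.

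Fingers (C-X2-4-C-X12-H-X3-5-H by pattern), KRAB boxes and SCAN domains were searched in translated GENCODE 29 coding sequences (GRCh38), since no protein table was used here; gene positions are from the same release. Promoters are RefSeq windows (GRCh38.p14), matched by symbol for 116 of 133 members.

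Members named in a comparison with a control are the up to 10 largest rises and falls with an adjusted p under 0.05 and no overlap of libraries. The other comparisons of 2 groups name up to 6 and the interactions up to 4 in each direction, and the comparisons over several groups the 10 largest F values. Members with a listed role may be named in any case. The members, gene lists and rules were chosen with earlier results of these data known. Same-numbered replicates did not deviate together, so no pairing was used. Alternatives tried were other scalings, filters, DESeq2 1.42.0, other fits, a fold threshold, other member thresholds and leaving out each library.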

Additional observations from a re-analysis of the deposited data

Results flagged for a closer look

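Differences between arms, where the direct response to a stimulus is subtracted from the response to its vesicles, passed an adjusted p of 0.05 in edgeR's test for the named members below. They use the Control libraries that chose the members, and the 4 stimuli share Control and EV-Control. All values are log2 differences.

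For TNF the interaction was 1.69 for ZNF362, 1.15 for ZNF48, 0.92 for ZNF45, 0.89 for ZNF395, -1.60 for ZNF217, -1.54 for ZNF697, -1.07 for ZNF644 and -1.05 for ZNF710. For IL1b it was 1.13 for ZNF362, 0.93 for ZNF628, 0.91 for ZNF789, 0.63 for ZNF45, -1.33 for ZNF217, -1.10 for ZNF574, -0.998 for ZNF644 and -0.80 for ZNF292. For C5a it was 0.63 for ZNF628, 0.54 for ZNF789, 0.40 for ZNF608, 0.28 for ZNF687, -1.07 for ZNF574, -0.71 for ZNF445, -0.70 for ZNF644 and -0.69 for ZNF398. For Epinephrine it was 0.93 for ZNF45, 0.84 for ZNF48, 0.76 for ZNF628, 0.73 for ZNF251, -1.33 for ZNF217, -1.01 for ZNF644, -0.64 for ZNF367 and -0.49 for ZNF407.

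The EV-Control libraries of ZNF217, ZNF644 and ZNF367 varied widely, with replicate 1 highest at 99.1, 81.2 and 87.3 CPM. In the C5a interaction, the calls of ZNF608, ZNF687 and ZNF789 were lost in 11, 6 and 10 of 12 fits that each left out 1 library.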

How the results depend on the processing

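The share of members called was recomputed under 349 alternatives, and 29 moved it by over 1.5 times; the cause was not tested unless fewer samples or a stricter threshold set it by construction. Scaling by library total gave 72.2% for TNF minus Control (45.9% with TMM) and 76.7% for IL1b minus TNF (48.9%). Requiring a log2 change over 0.5 gave 17.3% for TNF, 21.1% for IL1b, 9.02% for C5a, 2.26% for Epinephrine, 18.8% for IL1b minus TNF, 6.02% for C5a minus Epinephrine, 4.51% for EV-TNF, 3.76% for EV-IL1b, 5.26% for EV-Epinephrine and 4.51% for EV-Control minus Control. In the interactions the same threshold gave 27.1% for TNF, 21.1% for IL1b, 12.8% for C5a and 16.5% for Epinephrine. Fits of only the groups compared gave 16.5% for Epinephrine, 15.8% for C5a minus Epinephrine, 12.0% for EV-TNF and 6.02% for EV-IL1b. Leaving out 1 library gave 15% to 38.4% for Epinephrine, 18.1% to 33.8% for C5a minus Epinephrine, 9.02% to 21.8% for EV-IL1b, 0% to 3.01% for EV-C5a and 16.5% to 31.6% for EV-Control minus Control. Where an arm was left with 2 libraries, the spread was pooled over the fit.

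Of 190 named comparisons of single members, 146 kept their call in every alternative run. Of 2776 alternative values 153 lost the call, 118 of them in fits without 1 library, and 0 changed direction. These members were named for their large called changes, and in comparisons of 2 groups also for no overlap of libraries. That choice favours kept calls and directions, so the counts do not measure how stable other members are. With the replicate number as a block 1 call was lost, the C5a interaction of ZNF789, at 0.54. Deviations of same-numbered libraries from their group means correlated between -0.232 and 0.173. For libraries of different number the range was -0.22 to 0.271. No deviation shared by number was seen, which cannot exclude a pairing. No share moved by over 1.5 times under that block. The simulated data held changes by a factor of 2 only, so detection of smaller changes at this depth was not tested.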

Other observations

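Of the 133 members, 34 differed both among the 4 stimuli and among the 5 vesicle groups, and 25 in neither test. There were 68 that differed among the stimuli alone and 6 among the vesicle groups alone. Calls were at an adjusted p under 0.05 in edgeR, and no test of the difference between these counts was made. The same counts were not made over other genes. Each test by itself called members about as often as genes at 10 CPM or more, so the split is not read as particular to the members. ZNF146, a short protein made almost wholly of its 10 fingers, was among those that differed in both tests, and its exons overlap ZNF565. Its CPM was 35.2, 33.0 and 38.8 in Control, 59.2, 55.5 and 56.4 in IL1b, 41.0, 38.6 and 41.9 in EV-Control and 52.2, 49.3 and 53.4 in EV-IL1b. ZNF561, a KRAB gene whose exons overlap ZNF561-AS1, had 11, 10.6 and 13.6 CPM in EV-Control and 18.2, 16.1 and 20.3 CPM in EV-Epinephrine (log2 fold change 0.63, edgeR adjusted p = 9.84e-06).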
